A study of Mus musculus with 12 samples.

Results

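Matrix metalloproteinases (MMPs) and their tissue inhibitors (TIMPs) were examined in bone marrow-derived dendritic cells (BMDCs). The 9 genes, taken by symbol from the 41709 genes counted, were the 6 MMP genes Mmp8, Mmp9, Mmp12, Mmp13, Mmp14 and Mmp19 and the 3 TIMP genes Timp1, Timp2 and Timp3. Mouse bone marrow cells were cultured with GM-CSF for 10 days, left unstimulated or exposed to LPS at 100 ng/mL, over 24 h per the labels and overnight per the study's methods, and MHCII+ cells were isolated for RNA-seq. Every mouse was homozygous for a floxed CD18 allele. CD18CD11c cKO mice (genotype CD18ΔCD11c) in addition carried Cre recombinase driven by the CD11c promoter, so that deletion could start once this promoter became active, and CD18fl/fl mice carried no Cre. Both genotypes were sequenced in both states, which gave 4 groups of 3 libraries. Neither the age of the mice nor whether libraries came from separate animals is stated, so p-values measure the spread between these libraries.

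MMPs are zinc-dependent proteases that are made as inactive zymogens and, once activated, cleave collagens, elastin, gelatin and other matrix proteins as well as cytokines and their receptors. TIMPs bind to the active site of MMPs and block it, so that the balance of both families sets proteolysis around a cell. In dendritic cells and macrophages, these enzymes are known for their part in migration through tissue. CD18, encoded by Itgb2, is the common beta chain of the beta2 integrins, which anchor leukocytes to matrix and to other cells.

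Total gene reads per library ranged between 29689149 and 34037178, and a floor of 3 reads corresponded to 0.0881 to 0.101 CPM. CPM are counts scaled to library size, here after TMM scaling over all 12 libraries. Itgb2 amounted to 394 ± 23.0 CPM (SD, n = 3) in unstimulated CD18fl/fl BMDCs against 158 ± 34.8 in CD18CD11c cKO BMDCs, and to 202 ± 56.3 against 108 ± 15.6 after LPS. All 10 dendritic cell markers listed were above the floor in at least 1 library of every group, but their levels differed in replicate 3. In unstimulated CD18fl/fl replicates 1 to 3, Irf8 was at 1408, 1433 and 202 CPM and Flt3 at 26.4, 35.5 and 2.25 CPM. Of these markers, only Itgax was highest in replicate 3 of this group, at 174, 210 and 453 CPM. Replicate 3 stood apart from replicates 1 and 2 in every group. Same-numbered libraries deviated together, but replicates 1 and 2 also did so across numbers. Results are shown both without a block and with a block for the replicate number, which compares same-numbered libraries. A gene was called where the quasi-likelihood test of edgeR gave a Benjamini-Hochberg adjusted p under 0.05 over all genes tested. In bulk RNA, fewer cells of a type and less RNA per cell cannot be told apart.

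Mmp13 (chromosome 9, 7272514 to 7283331), Mmp12 (chromosome 9, 7344381 to 7369499) and Mmp8 (chromosome 9, 7558457 to 7568486) lie on the plus strand of 1 MMP gene cluster in the coordinates of the files, which are those of GRCm39. Mmp9 lies on chromosome 2 (164782700 to 164797770), Mmp14 on chromosome 14 (54669069 to 54682821) and Mmp19 on chromosome 10 (128626779 to 128636693). Timp1 lies on chromosome X (20736405 to 20740974), Timp2 on the minus strand of chromosome 11 (118191895 to 118246566) and Timp3 on chromosome 10 (86136236 to 86185370). Timp1 and Timp3 are located within genes of the opposite strand, Syn1 and Syn3, and Mmp19 overlaps Tmem198b, also on the opposite strand. The library kit did not mark the strand, so reads of such overlaps cannot be assigned with certainty. Syn1 had between 0.18 and 11.1 CPM, Tmem198b between 5.84 and 21.6 CPM and Syn3 between 0.607 and 12.8 CPM, the latter above all values of Timp3 at its upper end. Between 74.6% and 83.2% of the Mmp19 reads mapped uniquely, against 95.1% to 96.2% of all reads. Intron reads made up 26.6% to 43.8% of the Mmp14 reads, with a median of 31.8%, and their median was below 4% in each of the other 8 genes.

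The 250 bases before the RefSeq gene start are printed for Timp1 and Mmp8, which were called in the same direction by LPS in both genotypes, and for the cluster neighbours Mmp13 and Mmp12, which were added after their genotype values were seen. Of the 9 genes, 7 had an entry in the RefSeq promoter table (build GRCm38.p6), with 2 gene starts for Mmp12. Each sequence had 1 match in GRCm39, whose coordinates are given. Sequences were searched on both strands for the AP-1 motif TGANTCA, bound by Fos and Jun dimers, and for the NF-kB motif. Capitals mark a match to the AP-1 motif.
Mmp13, chr9:7272264-7272513, plus strand: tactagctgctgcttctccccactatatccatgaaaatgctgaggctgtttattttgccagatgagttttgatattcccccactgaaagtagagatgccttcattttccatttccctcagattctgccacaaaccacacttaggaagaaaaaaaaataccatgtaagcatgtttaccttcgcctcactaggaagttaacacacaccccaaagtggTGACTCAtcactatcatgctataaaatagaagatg
Mmp12, first start, chr9:7344147-7344396, plus strand: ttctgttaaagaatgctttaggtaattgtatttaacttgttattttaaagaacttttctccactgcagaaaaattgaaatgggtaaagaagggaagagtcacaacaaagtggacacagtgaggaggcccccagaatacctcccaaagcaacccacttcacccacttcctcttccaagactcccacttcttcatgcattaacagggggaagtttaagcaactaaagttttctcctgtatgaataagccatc
Mmp12, second start, chr9:7347124-7347373, plus strand: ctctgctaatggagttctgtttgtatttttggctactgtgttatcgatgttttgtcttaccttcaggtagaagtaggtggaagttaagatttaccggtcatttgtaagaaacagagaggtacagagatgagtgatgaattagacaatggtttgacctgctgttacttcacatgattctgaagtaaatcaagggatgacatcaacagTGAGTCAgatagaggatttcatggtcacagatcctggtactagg
Mmp8, chr9:7558180-7558429, plus strand: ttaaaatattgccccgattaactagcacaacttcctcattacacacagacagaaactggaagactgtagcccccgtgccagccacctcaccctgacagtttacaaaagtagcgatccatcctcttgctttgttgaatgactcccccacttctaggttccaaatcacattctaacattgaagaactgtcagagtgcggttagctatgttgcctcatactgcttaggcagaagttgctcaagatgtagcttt
Timp1, chrX:20736155-20736404, plus strand: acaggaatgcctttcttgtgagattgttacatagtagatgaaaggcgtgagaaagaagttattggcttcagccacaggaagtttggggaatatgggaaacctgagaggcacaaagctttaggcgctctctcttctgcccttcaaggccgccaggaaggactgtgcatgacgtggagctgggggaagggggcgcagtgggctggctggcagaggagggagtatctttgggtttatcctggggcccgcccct
The AP-1 motif occurred at positions -35 to -29 from the Mmp13 start (TGACTCA) and at -44 to -38 from the second Mmp12 start (TGAGTCA). It was found in none of the other 6 windows, those of Mmp14, Timp2 and Timp3 included, and the NF-kB motif was found in none of the 8. Among the 32851 windows of this length in the table, 6.75% held the AP-1 motif and 3.90% the NF-kB motif. These matches describe letters and not binding.

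On the length-corrected TPM scale, Mmp12, the macrophage elastase, was by far the most abundant of the 9 transcripts in all groups. Its mean level was 1848 ± 609.7 TPM (SD, n = 3) in unstimulated CD18fl/fl and 3470 ± 2447 TPM in unstimulated CD18CD11c cKO BMDCs. After LPS, it was 645 ± 539.7 and 1585 ± 862 TPM, respectively. Among all genes it ranked between 20 and 451 in a library. In each group, its lowest library was above the highest library of the next gene. In unstimulated CD18fl/fl BMDCs, Mmp12 was followed by Mmp8 at 285 ± 131 TPM and Mmp19 at 86.5 ± 44.4 TPM, whose ranges overlapped. Timp2, Mmp13 and Mmp14 came next with overlapping ranges around means of 32.0, 28.0 and 26.9 TPM. Mmp9 and Timp1, at 4.61 and 3.79 TPM, overlapped each other and lay below these, and Timp3 was lowest at 0.580 TPM. In unstimulated CD18CD11c cKO BMDCs, the order was Mmp12, Mmp8, Mmp19, Mmp13, Timp2, Mmp14, Timp1, Mmp9 and Timp3. There, apart from Mmp12, only the neighbours Timp1 and Mmp9 did not overlap, with means of 5.79 and 1.5 TPM. After LPS, Timp1 took the place behind Mmp12 in both genotypes, at 65.0 ± 50.3 TPM in CD18fl/fl and 71.1 ± 51.9 TPM in CD18CD11c cKO BMDCs. Its range overlapped that of Mmp8, which followed at 44.7 and 25.9 TPM.

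**Figure D1:**
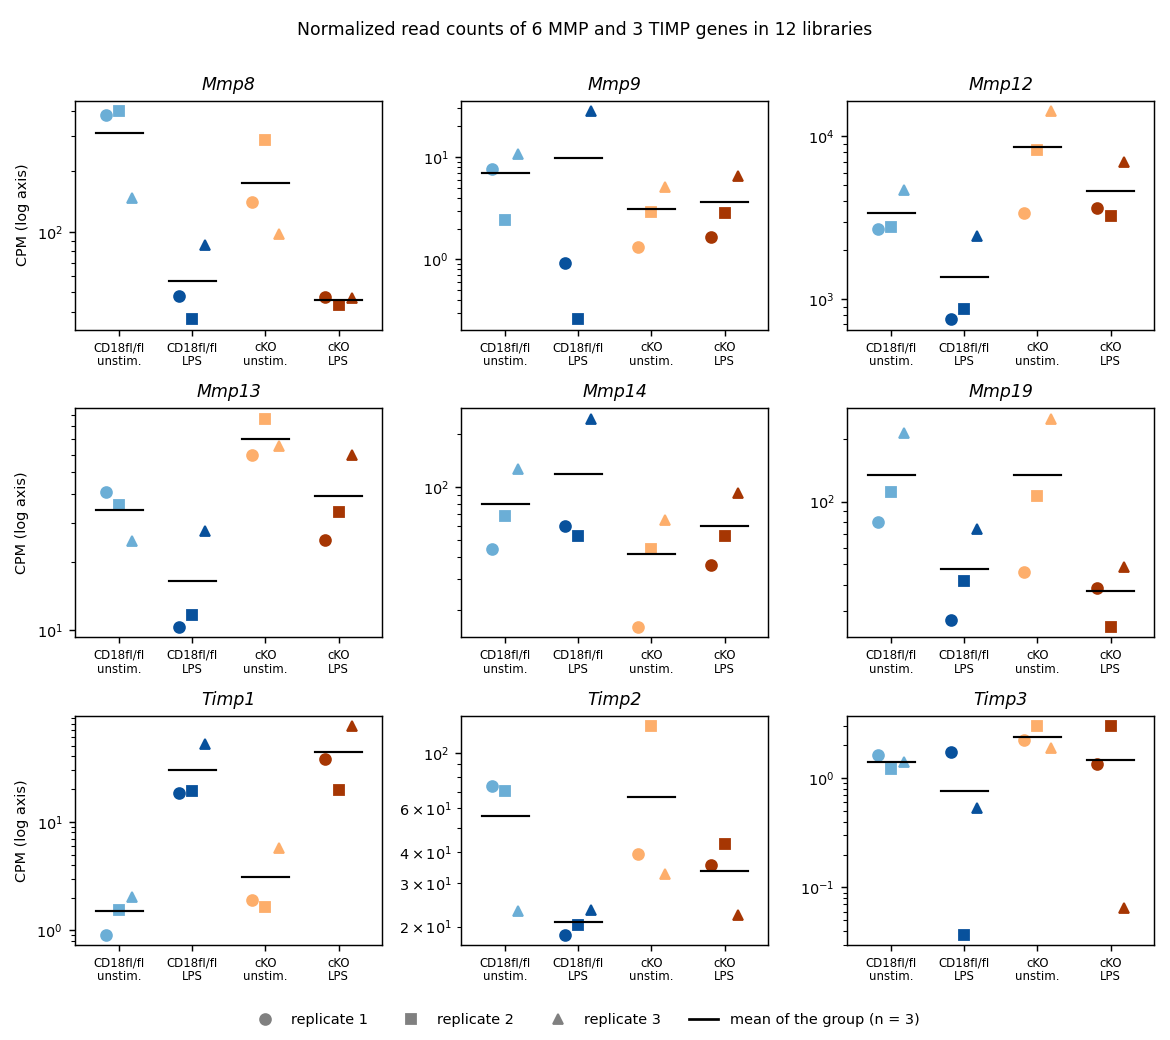
CPM on a log axis in each of the 12 libraries for the 6 MMP and 3 TIMP genes, with 1 panel per gene. The x axis gives the 4 groups (cKO, CD18CD11c cKO; unstim., unstimulated), symbols mark the replicate number and black lines the mean of the 3 libraries. The LPS-treated libraries lie above all unstimulated ones for Timp1 and below them, within each genotype, for Mmp8, and replicate 3 (triangles) is highest in all 4 groups for Mmp9, Mmp12, Mmp14, Mmp19 and Timp1.

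Replicate 3 differed from the others in a gene-specific way. Mmp9, Mmp12, Mmp14, Mmp19 and Timp1 were highest in replicate 3 of all 4 groups. For Mmp12, replicate 3 amounted to between 1.72 and 3.03 times the mean of replicates 1 and 2, and for Mmp9 to between 2.14 and 47.6 times. Timp2 was lowest in replicate 3 of 3 groups, and Mmp8 of 2 groups, where it reached 0.379 and 0.456 times the mean of replicates 1 and 2.

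The first comparison asked how LPS changed the 9 transcripts within a genotype. LPS raised Timp1 and lowered Mmp8, the neutrophil collagenase, in both genotypes. Timp1 encodes a secreted inhibitor of most MMPs. In unstimulated CD18fl/fl libraries, Timp1 was at 0.916, 1.55 and 2.03 CPM in replicates 1 to 3, against 18.5, 19.3 and 52.0 CPM after LPS. In CD18CD11c cKO libraries, it was at 1.89, 1.63 and 5.78 CPM without and at 37.6, 19.8 and 75.9 CPM with LPS. The states did not overlap in either genotype. The log2 fold change of Timp1 was 4.32 in CD18fl/fl (SE 0.57, edgeR adjusted p = 0.0162) and 3.81 in CD18CD11c cKO BMDCs (SE 0.72, adjusted p = 0.0407), a 20-fold and a 14.0-fold increase. With the replicate block, the values were 4.22 (adjusted p = 0.00414) and 3.82 (adjusted p = 0.000847). The sum of the 9 stromal cell markers moved with Timp1 in replicates 1 and 2, mainly through the matrix proteins Lum and Dcn. In these replicates, 8 and 5 markers were higher and 1 and 2 lower after LPS in CD18fl/fl BMDCs. In CD18CD11c cKO BMDCs, 3 and 3 were higher and 1 and 2 lower. Col1a1, Col1a2, Col3a1, Pdgfra and Pdgfrb reached at most 0.267 CPM there. The sum was 3.08 and 3.54 CPM in unstimulated CD18fl/fl replicates 1 and 2 against 16.5 and 41.9 CPM after LPS, and 2.49 and 2.87 against 8.83 and 15.0 CPM in CD18CD11c cKO BMDCs. Lum reached 8.86 and 26.2 CPM in replicates 1 and 2 of LPS-treated CD18fl/fl BMDCs, from 0.250 and 0.125 CPM. In replicate 3, the sum was lower after LPS, at 17.6 against 47.9 CPM and at 22.5 against 74.2 CPM, where Lepr alone accounted for 47.5 and 73.7 CPM without LPS. By count, 3 markers were higher and 2 lower in this replicate of CD18fl/fl, and 4 higher and 2 lower in that of CD18CD11c cKO. Dcn was among the higher ones in both genotypes, and Lum in CD18CD11c cKO. The part of any stromal cells in the rise of Timp1 was not tested.

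Mmp8 was at 381, 399 and 148 CPM in unstimulated CD18fl/fl libraries and at 47.7, 36.7 and 86.0 CPM after LPS. In CD18CD11c cKO BMDCs, it was at 141, 285 and 97.1 CPM without and at 47.6, 43.5 and 46.6 CPM with LPS. All 6 LPS libraries were thus below the 6 unstimulated ones. The log2 fold change was -2.44 in CD18fl/fl (SE 0.51, edgeR adjusted p = 0.0487) and -1.98 in CD18CD11c cKO BMDCs (SE 0.42, adjusted p = 0.0473). With the block, it was -2.44 (adjusted p = 0.0431) and -1.82 (adjusted p = 0.0124). In CD18fl/fl BMDCs, the call of Mmp8 was lost when counts were scaled to library size alone (adjusted p = 0.0522) and with a length offset beside the block (adjusted p = 0.0514). The call of Timp1 in CD18CD11c cKO BMDCs was lost with library size scaling (adjusted p = 0.0525). Neutrophil markers summed to 1326, 113 and 8.90 CPM in the unstimulated CD18fl/fl replicates and to 42.3, 43.0 and 12.1 CPM after LPS. In the CD18CD11c cKO replicates, the sums were 194, 158 and 10.9 CPM without and 56.1, 68.9 and 14.4 CPM with LPS. All 10 markers were lower after LPS in CD18fl/fl replicates 1 and 2. In CD18CD11c cKO replicates 1 and 2, 9 and 8 were lower and 0 and 1 higher. In replicate 3, the sum was higher after LPS in either genotype. By count, 5 markers were higher and 3 lower there in CD18fl/fl, and 4 higher and 4 lower in CD18CD11c cKO BMDCs. The log2 change of Mmp8 in replicates 1 to 3 was -3.00, -3.44 and -0.78 in CD18fl/fl BMDCs. In CD18CD11c cKO BMDCs, it was -1.57, -2.71 and -1.06. The part of the neutrophil markers in the result was not tested.

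The calls without the block were lost when a library of replicate 1 or 2 was left out. In CD18fl/fl BMDCs, leaving out replicate 1 or 2 of the unstimulated or of the LPS group left 0 genes called among all genes tested, with adjusted p from 0.0672 to 0.117 for Timp1 and from 0.171 to 0.198 for Mmp8. In CD18CD11c cKO BMDCs, the same 4 omissions left 0 to 26 genes called. Adjusted p then ranged between 0.0991 and 0.151 for Timp1 and between 0.115 and 0.190 for Mmp8. Without LPS-treated replicate 3 of CD18CD11c cKO, Mmp8 had an adjusted p of 0.0556. Leaving out replicate 3 of both states instead gave Timp1 a log2 fold change of 3.92 in either genotype (adjusted p = 1.95e-06 and 0.00427) and Mmp8 of -3.21 and -2.33 (adjusted p = 3.14e-07 and 0.0107).

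Without the block, 2 of the 9 genes were called in each genotype, where 3.89% of all genes were called in CD18fl/fl and 3.99% in CD18CD11c cKO BMDCs. With the block, 4 of 9 were called in CD18fl/fl (12.8% of all genes) and 3 of 9 in CD18CD11c cKO BMDCs (20.2%). Without replicate 3, the counts were 7 of 9 in CD18fl/fl, at a background of 47.5%, and 3 of 9 in CD18CD11c cKO BMDCs, at 15.9%. The states did not overlap for 4 of 9 genes in CD18fl/fl (29.5% of all genes) and for 3 of 9 in CD18CD11c cKO BMDCs (28.1%). The median log2 fold change of the 9 genes was -1.03 and -0.87, respectively, beside -0.02 and -0.01 for all genes.

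With the block, LPS also lowered Mmp19 in both genotypes and Mmp12 in CD18fl/fl BMDCs. Mmp12 was at 2703, 2780 and 4711 CPM in unstimulated and at 753, 870.4 and 2457 CPM in LPS-treated CD18fl/fl libraries, which did not overlap. Its log2 fold change was -1.31 (SE 0.52, adjusted p = 0.191), and -1.48 with the block (SE 0.25, adjusted p = 0.0194). In CD18CD11c cKO libraries, Mmp12 was at 3371, 8208 and 14343 CPM without and at 3617, 3257 and 7005 CPM with LPS. These states overlapped, and the log2 fold change of -0.94 (adjusted p = 0.395), or -0.81 with the block (adjusted p = 0.0987), passed the threshold in neither fit.

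Mmp19, which cleaves basement membrane proteins, was at 79.5, 111 and 213 CPM in unstimulated and at 27.1, 41.6 and 73.7 CPM in LPS-treated CD18fl/fl libraries. In CD18CD11c cKO libraries, it was at 45.8, 107 and 249 CPM without and at 38.7, 25.1 and 48.7 CPM with LPS. It was thus lower after LPS in each of the 3 same-numbered pairs of either genotype. The log2 fold change was -1.49 in CD18fl/fl (SE 0.50, adjusted p = 0.136) and -1.88 in CD18CD11c cKO BMDCs (SE 0.61, adjusted p = 0.135), and with the block -1.49 (adjusted p = 0.0111) and -1.63 (adjusted p = 0.0345). DESeq2 without a block also called the decrease, with adjusted p of 0.0352 and 0.0165.

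**Figure D2:**
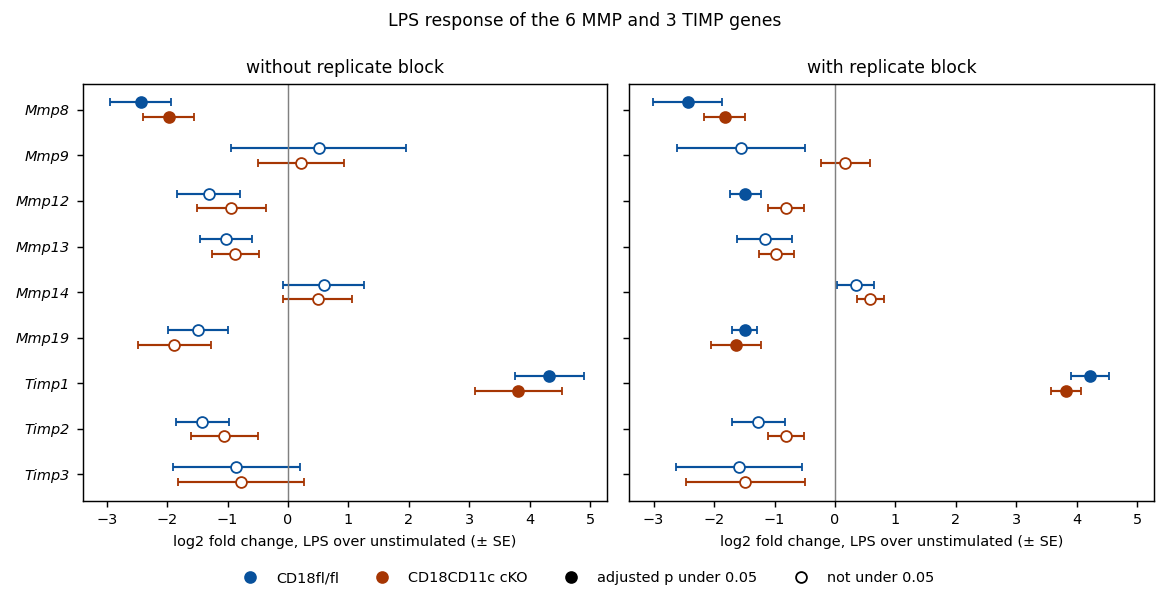
Log2 fold change of LPS-treated over unstimulated BMDCs (x axis, error bars ± SE of the edgeR fit to 6 libraries) for the 9 genes (y axis), in CD18fl/fl (blue) and CD18CD11c cKO (brown), without the replicate block on the left and with it on the right. Filled circles have an adjusted p under 0.05. Timp1 lies at 4.32 and 3.81 and Mmp8 at -2.44 and -1.98 without the block, and Mmp12 (CD18fl/fl) and Mmp19 are filled only on the right.

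The other 5 genes passed the threshold of edgeR in neither fit over 6 libraries. Mmp13, a collagenase known from cartilage and bone, was at 41, 36.0 and 24.8 CPM in unstimulated and at 10.4, 11.7 and 27.4 CPM in LPS-treated CD18fl/fl libraries. In CD18CD11c cKO libraries, it was at 59.9, 86.5 and 65.1 CPM without and at 25.2, 33.4 and 59.5 CPM with LPS, which did not overlap. Its log2 fold change was -1.03 (adjusted p = 0.204) and -0.87 (adjusted p = 0.249). With the block, it was -1.16 (adjusted p = 0.136) and -0.97 (adjusted p = 0.0579). Restricted to replicates 1 and 2, the decrease was called in both genotypes, at -1.81 (adjusted p = 1.58e-05) and -1.43 (adjusted p = 0.0199). Mmp14, a membrane-anchored MMP that activates other MMPs at the cell surface, had a log2 fold change of 0.59 in CD18fl/fl (SE 0.67) and 0.49 in CD18CD11c cKO BMDCs (SE 0.56). With exon reads alone, these values were 0.65 (SE 0.71) and 0.37 (SE 0.60). Mmp14 was at 35.8, 52.5 and 91.7 CPM in the LPS-treated CD18CD11c cKO libraries. It reached 244 CPM in LPS-treated CD18fl/fl replicate 3, against 60.1 and 52.6 CPM in replicates 1 and 2. Without this library, its value in CD18fl/fl BMDCs turned to -0.49.

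Mmp9, gelatinase B, was at 7.74, 2.41 and 10.9 CPM in unstimulated CD18fl/fl libraries and at 0.931, 0.260 and 28.3 CPM after LPS. Replicates 1 and 2 were thus lower and replicate 3 was higher after LPS. The log2 fold change of 0.51 (SE 1.45, adjusted p = 0.864) turned to -1.56 with the block (adjusted p = 0.348), and to -3.06 in replicates 1 and 2 alone (SE 0.70, adjusted p = 0.00356). In CD18CD11c cKO libraries, Mmp9 was at 1.32, 2.90 and 5.09 CPM without and at 1.66, 2.83 and 6.54 CPM with LPS, a log2 fold change of 0.22 (SE 0.71). There, replicates 1 and 2 alone gave -0.02 (adjusted p = 0.986).

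Of the inhibitors other than Timp1, Timp2 was at 73.8, 70.4 and 23.2 CPM in unstimulated and at 18.6, 20.4 and 23.4 CPM in LPS-treated CD18fl/fl libraries. Besides its role as an inhibitor, Timp2 takes part in the activation of Mmp2 by Mmp14. The log2 fold change was -1.42 (SE 0.44, adjusted p = 0.117), and -1.89 in replicates 1 and 2 alone (adjusted p = 4.98e-06), whereas replicate 3 had nearly the same level in both states. In CD18CD11c cKO libraries, Timp2 was at 39.4, 128 and 32.7 CPM without and at 35.5, 43.2 and 22.3 CPM with LPS, and the log2 fold change was -1.06 (adjusted p = 0.328). DESeq2 called Timp2 in CD18fl/fl BMDCs (adjusted p = 0.0322). Timp3, which is held in the matrix and also inhibits ADAM proteases, was between 1.2 and 2.97 CPM in all 6 unstimulated libraries. After LPS, it was at 1.73, 0.0372 and 0.534 CPM in CD18fl/fl and at 1.34, 2.96 and 0.0647 CPM in CD18CD11c cKO libraries, where the lowest values stood for 1 and 2 reads. Its log2 fold changes of -0.85 and -0.78 had SEs of 1.06 and 1.04.

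The make-up of the inhibitors thus differed between the states. In unstimulated CD18fl/fl BMDCs, Timp1 accounted for 13.6 ± 11.7% (SD, n = 3) of the summed TPM of the 3 TIMP genes, and after LPS for 83.8 ± 5.84%. In CD18CD11c cKO BMDCs, the share was 21.5 ± 19.2% without and 80.4 ± 14.1% with LPS. The states did not overlap in either genotype (exact permutation test on log2 values, two-sided p = 0.1, the smallest that 3 against 3 libraries allow). Timp2 held 84.5 ± 12.8% and 76.0 ± 19.4% before LPS and 15.7 ± 5.55% and 18.9 ± 13.2% after it. The summed TPM of the 3 TIMP genes was 36.4 ± 15.2 without and 75.1 ± 52.7 with LPS in CD18fl/fl, and 33.3 ± 18.5 and 83.0 ± 48.8 in CD18CD11c cKO BMDCs, with overlapping ranges (exact permutation p = 0.4 and 0.2). That of the 6 MMP genes was 2278 ± 536.7 and 770.1 ± 639.6 TPM in CD18fl/fl (p = 0.1 by the exact permutation test, no overlap). In CD18CD11c cKO BMDCs, it was 3700.3 ± 2496 and 1660.3 ± 889.6 TPM (exact permutation p = 0.2). Without Mmp12, the sum of the other 5 MMP genes was 431 ± 83.9 and 125 ± 100.0 TPM in CD18fl/fl and 231 ± 75.6 and 74.9 ± 27.5 TPM in CD18CD11c cKO BMDCs, without overlap (exact permutation p = 0.1 each).

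**Figure D3:**
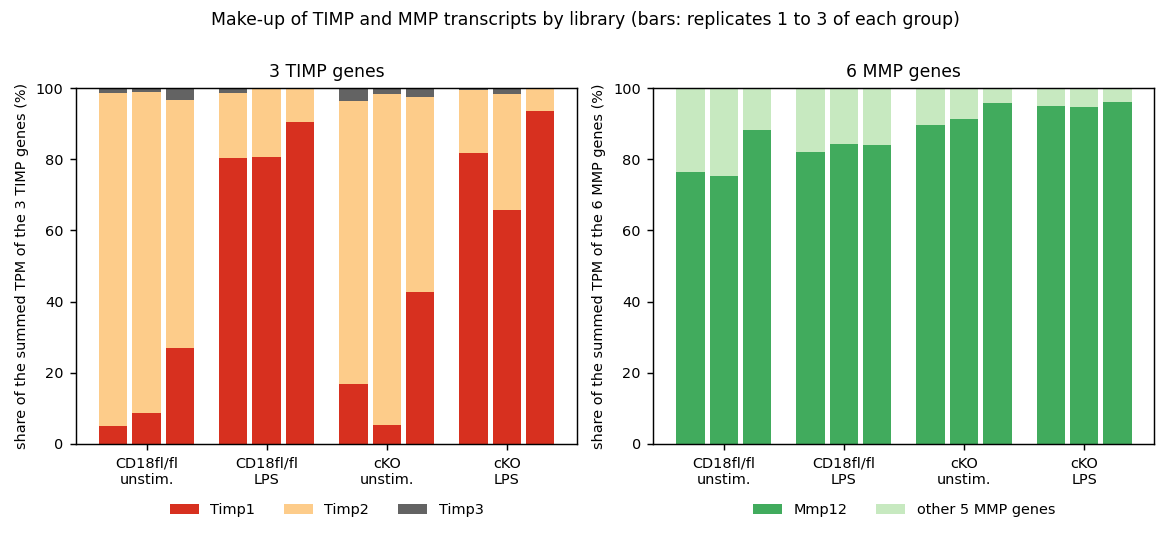
Share (%) of Timp1, Timp2 and Timp3 in the summed TPM of the 3 TIMP genes (left) and of Mmp12 in that of the 6 MMP genes (right), with 1 bar per library, ordered as replicates 1 to 3 of each group (cKO, CD18CD11c cKO). Timp1 holds between 5.10% and 42.7% in unstimulated and between 65.7% and 93.7% in LPS-treated libraries, and Mmp12 holds at least 89.5% in all CD18CD11c cKO libraries.

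The second comparison addressed the effect of the CD18 deletion within a state. In unstimulated BMDCs, Mmp12 and Mmp13 had higher and Mmp8 and Mmp14 lower values in CD18CD11c cKO than in CD18fl/fl libraries, and over all 6 libraries edgeR called these differences with the replicate block and not without it. The promoter windows of Mmp13 and of the second Mmp12 start held an AP-1 match, and that of the first Mmp12 start did not. This is a description only, and which Mmp12 start was used was not tested. Mmp13 was at 59.9, 86.5 and 65.1 CPM in CD18CD11c cKO against 41, 36.0 and 24.8 CPM in CD18fl/fl libraries, without overlap. Its log2 fold change was 1.11 (SE 0.27, edgeR adjusted p = 0.142), and 1.13 with the block (SE 0.20, adjusted p = 0.0101). Mmp12 was at 3371, 8208 and 14343 CPM against 2703, 2780 and 4711 CPM, higher in 3 of 3 pairs but overlapping between the groups. The log2 fold change of Mmp12 was 1.41 (SE 0.53, adjusted p = 0.252), and 1.23 with the block (SE 0.28, adjusted p = 0.0237). Macrophage markers summed to between 1855 and 2449 CPM in these CD18CD11c cKO libraries and to between 2017 and 2338 CPM in the CD18fl/fl libraries. Of the 10 markers, 4 were higher in CD18CD11c cKO in all 3 pairs, the complement genes C1qa, C1qb and C1qc and the Fc receptor gene Fcgr1. C1qb, for example, was at 616, 548 and 767 CPM against 404, 364 and 396 CPM. Their part in the values of Mmp12 and Mmp13 was not tested.

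Mmp8 was at 141, 285 and 97.1 CPM in CD18CD11c cKO against 381, 399 and 148 CPM in CD18fl/fl libraries, lower in 3 of 3 pairs. Its log2 fold change was -0.78 without (adjusted p = 0.493) and with the block (SE 0.21, adjusted p = 0.036). Neutrophil markers amounted to 194, 158 and 10.9 CPM in the CD18CD11c cKO replicates against 1326, 113 and 8.90 CPM. All 10 markers were lower in CD18CD11c cKO replicate 1 and 7 in replicate 2, where Camp, S100a8 and S100a9 were higher, whereas in replicate 3 the count was 1 lower and 6 higher. Ngp, a granule protein gene, was at 17.6, 7.94 and 1.10 CPM against 202, 16.3 and 0.0267 CPM. Most of these markers thus moved with Mmp8 in replicates 1 and 2, and their part in its value was not tested. Mmp14 was at 16.0, 44.1 and 64.9 CPM against 44.5, 68.5 and 126 CPM, also lower in each pair. For Mmp14, the log2 fold change was -0.86 (adjusted p = 0.478), and -0.96 with the block (SE 0.19, adjusted p = 0.0144). Timp3 did not overlap between the genotypes, at 2.21, 2.97 and 1.88 CPM against 1.61, 1.2 and 1.39 CPM, but had an adjusted p of 0.398 without and 0.286 with the block.

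Without the block, edgeR called 0 of the 9 genes between the genotypes in unstimulated BMDCs, as it did of all genes (0.0%). At an unadjusted p under 0.05, Mmp12 and Mmp13 passed, at a background of 16.8%. DESeq2 without a block called Mmp13 alone (adjusted p = 0.0083), 1 of the 7 of these genes to which it gave an adjusted p, against 8.6% of all such genes. With the block, edgeR called 4 of 9 genes, 2 higher and 2 lower, where 20.2% of all genes were called. In replicates 1 and 2 alone, Mmp13 was called (log2 fold change 0.99, adjusted p = 0.0398), 1 of 9 at a background of 10.6%. For 2 of 9 genes, the genotypes had separate ranges, against 24.8% of all genes.

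After LPS, Mmp12 and Mmp13 were again higher in CD18CD11c cKO BMDCs where the block was used. Mmp12 was at 3617, 3257 and 7005 CPM in CD18CD11c cKO against 753, 870.4 and 2457 CPM in CD18fl/fl libraries, without overlap. Its log2 fold change was 1.74 (SE 0.58, adjusted p = 0.441), and 1.87 with the block (SE 0.17, adjusted p = 0.00641), a 3.65-fold difference. Macrophage markers summed to between 554 and 943 CPM in these CD18CD11c cKO libraries and to between 1170 and 1379 CPM in the CD18fl/fl libraries. Lower values in CD18CD11c cKO were found for 10 of the 10 markers in replicate 1 and for 7 in replicate 2. In replicate 3, 4 were lower and 6 higher, among the latter C1qb (135 against 61.2 CPM), Mertk (101 against 57.1 CPM) and Fcgr1 (88.7 against 42.6 CPM). The log2 difference of Mmp12 between same-numbered libraries was 2.26, 1.90 and 1.51 in replicates 1 to 3. The part of the macrophage markers was not tested here either. Mmp13 was at 25.2, 33.4 and 59.5 CPM against 10.4, 11.7 and 27.4 CPM, higher in 3 of 3 pairs. For Mmp13, the log2 fold change was 1.23 (SE 0.50, adjusted p = 0.503), and 1.28 with the block (SE 0.16, adjusted p = 0.00782). The genotype comparisons of the 2 states share no library, but same-numbered libraries of a genotype deviated together across the states (r across genes from 0.265 to 0.524 in CD18fl/fl and from 0.312 to 0.565 in CD18CD11c cKO), so that the 2 comparisons are not independent.

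In LPS-treated BMDCs without the block, edgeR again called 0 of the 9 genes and 0.0% of all genes. Mmp12 and Mmp13 had an unadjusted p under 0.05 (background 9.74%), and DESeq2 called Mmp12 (adjusted p = 0.0457), 1 of the 7 with an adjusted p, against 3.67% of all genes. With the block, 2 of 9 were called, both higher in CD18CD11c cKO, at a background of 10.1%. Replicates 1 and 2 alone gave 3 of 9 (4.22% of all genes), namely Mmp12 at 2.05 (adjusted p = 0.0258), Mmp13 at 1.37 (adjusted p = 0.027) and Timp2 at 0.98 (adjusted p = 0.0431). Mmp12 was the only gene of the 9 without overlap, where 17.6% of all genes did not overlap. Mmp8, which was lower in unstimulated CD18CD11c cKO libraries, had a log2 fold change of -0.34 (SE 0.35) after LPS, and of 0.08 in replicates 1 and 2 alone. Mmp9 reversed likewise, from -1.45 (SE 1.5) to 0.35 with the block and to 2.59 without LPS-treated CD18fl/fl replicate 3. Timp1 differed between the genotypes by 1.11 (SE 0.64) without and by 0.55 (SE 0.61) with LPS, higher in 3 of 3 pairs in each state but called in neither. With the block, the values of Timp1 were 0.94 and 0.51, and with a length offset beside the block they were 0.28 (SE 0.50) and 0.0039 (SE 0.20).

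**Figure D4:**
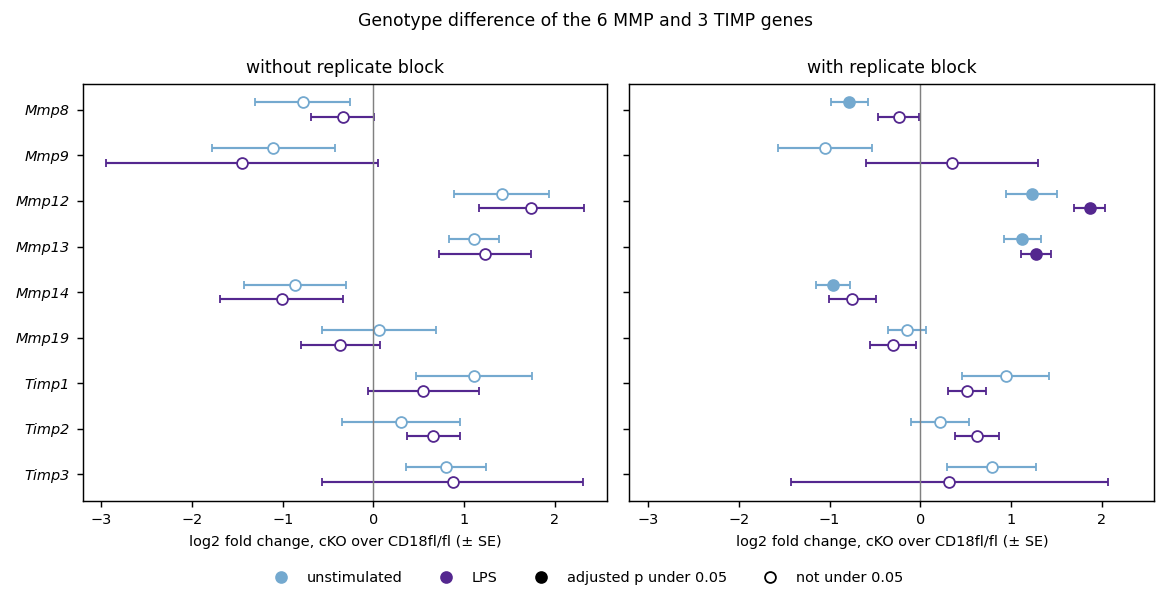
Log2 fold change of CD18CD11c cKO over CD18fl/fl BMDCs (x axis, error bars ± SE of the edgeR fit to 6 libraries) for the 9 genes (y axis), in unstimulated (light blue) and LPS-treated (purple) BMDCs, without the replicate block on the left and with it on the right. Filled circles have an adjusted p under 0.05 and are seen only with the block, at 1.23 and 1.87 for Mmp12, 1.13 and 1.28 for Mmp13, -0.78 for Mmp8 and -0.96 for Mmp14.

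The genotype values of all genes shifted with the scaling. Counts scaled to library size alone moved the median of all genes to -0.44 (log2) in unstimulated and -0.37 in LPS-treated BMDCs, from -0.05 and -0.11 with TMM. On this scale and with the block, Mmp12 had a log2 fold change of 0.83 (adjusted p = 0.0542) and Mmp13 of 0.73 (adjusted p = 0.0307) in unstimulated BMDCs, where the median of all genes was -0.46. After LPS, they were at 1.62 and 1.02, and Mmp14 was called at -1.0 (adjusted p = 0.0393), beside a median of -0.34. Mmp19 and Timp2 in unstimulated BMDCs, which were near 0, moved along with this median and changed sign, from 0.06 to -0.29 and from 0.31 to -0.10.

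A share does not depend on this scaling. Mmp12 held 92.3 ± 3.30% (SD, n = 3) of the summed TPM of the 6 MMP genes in unstimulated CD18CD11c cKO against 80.0 ± 7.11% in CD18fl/fl BMDCs, and 95.2 ± 0.711% against 83.5 ± 1.23% after LPS. The genotypes did not overlap in either state (exact permutation test on log2 values, two-sided p = 0.1 each, the smallest possible). The sum of the 5 MMP genes other than Mmp12 was lower in unstimulated CD18CD11c cKO BMDCs, at 231 ± 75.6 against 431 ± 83.9 TPM, without overlap (exact permutation p = 0.1). Unlike a share, this sum depends on the scale, and as TMM-scaled CPM, a scale added after the values were seen, it overlapped at 264, 525 and 482 against 554, 617 and 522 CPM (exact permutation p = 0.2). After LPS, it overlapped on the TPM scale at 74.9 ± 27.5 and 125 ± 100.0 TPM (exact permutation p = 0.5).

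Whether the response to LPS differed between the genotypes was tested as an interaction over all 12 libraries. edgeR called 0 of 9 genes without and 0 of 9 with the block, as it did of all genes (0.0% each), DESeq2 called 0 of 9 (0.0%), and at an unadjusted p under 0.05 none of the 9 passed, against 0.705% of all genes. The interaction estimates of the 9 genes lay between -0.48 for Timp1 (SE 0.88) and 0.52 for Mmp8 (SE 0.66). Replicates 1 and 2 alone also gave 0 of 9 (0.0%), and Mmp9 then had the value of 3.10 (SE 1.09, adjusted p = 0.674). A difference in the response of Mmp12, called with the block in CD18fl/fl but not in CD18CD11c cKO BMDCs, was therefore not shown, with an interaction of 0.70 in that fit (SE 0.39, adjusted p = 1).

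The chromosome 9 cluster held 10 MMP genes within 427 kb. Mmp13, Mmp12 and Mmp8 were abundant there, and their neighbours were not. Mmp1b, which overlaps the end of Mmp12 on the other strand, had at most 1 read in a library. Mmp3, a stromelysin, was at 0 reads in all 6 unstimulated libraries. Mmp27, next to Mmp8, ranged between 0 and 3.97 CPM. Within the cluster, Mmp8 and Mmp7, a matrilysin, moved in opposite directions with LPS where the block was used. Mmp7 rose by a log2 fold change of 3.14 in CD18fl/fl (SE 0.61, adjusted p = 0.027) and of 2.45 in CD18CD11c cKO BMDCs (SE 0.68, adjusted p = 0.047) with the block, from medians of 0.805 and 1.5 CPM to 5.75 and 9.43 CPM.

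**Figure D5:**
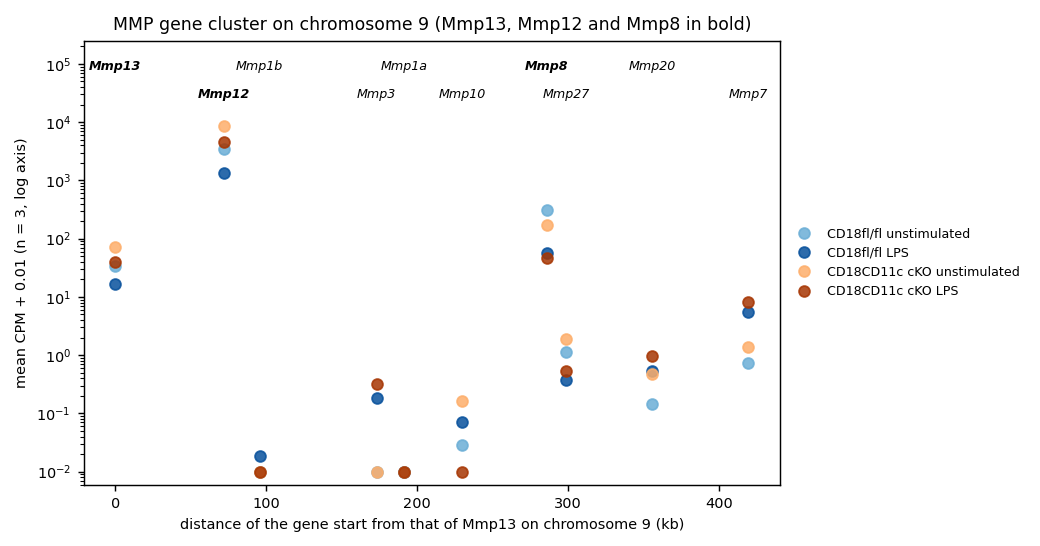
Mean CPM of 3 libraries plus 0.01 (y axis, log scale) for the 10 MMP genes of the chromosome 9 cluster against the distance of their start from that of Mmp13 (x axis, kb). Colours mark the 4 groups. Mmp13, Mmp12 and Mmp8 (bold) lie between 16.5 and 8641 CPM, and the other 7 genes at 8.11 CPM or less.

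Of 18 further genes, the other MMPs and Timp4, 9 had more than 3 reads in at least 3 libraries. Mmp25, a membrane-anchored MMP of leukocytes, was the most abundant, with group medians between 133 and 267 CPM. Mmp23 and Mmp2, gelatinase A, had medians between 0.674 and 11.8 and between 3.34 and 7.59 CPM, respectively, and Mmp3, Mmp11, Mmp20, Mmp27 and Mmp28 stayed below 4 CPM in each library. Without the block, 0 of the 5 to 6 tested were called in any of the 4 comparisons. With the block, LPS changed 2 of 6 in CD18fl/fl (12.8% of all genes), with Mmp7 higher and Mmp23 lower (log2 fold change -3.04, adjusted p = 0.0342), and 2 of 6 in CD18CD11c cKO BMDCs (20.2%), with Mmp7 and Mmp2 higher (Mmp2 0.98, adjusted p = 0.0478). Between the genotypes, 2 of 5 were called in unstimulated BMDCs, with Mmp25 lower (-0.75, adjusted p = 0.0288) and Mmp23 higher (1.21, adjusted p = 0.0486) in CD18CD11c cKO, at a background of 20.2%, and 0 of 6 after LPS, at 10.1%.

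Of 18 activators, inhibitors and docking partners of MMPs, 15 were tested. LPS raised 2 of 15 in CD18CD11c cKO BMDCs without the block, among them Lcn2, a lipocalin that binds Mmp9, by 4.2 on the log2 scale (SE 0.57, adjusted p = 0.0197), at a background of 3.99%. In CD18fl/fl BMDCs, 0 of 15 were called without the block. With the block, 2 were higher, among them Plat, the tissue plasminogen activator (4.33, adjusted p = 0.00414), where 12.8% of all genes were called in either direction. The block also called as lower Plaur, the urokinase receptor (-1.86, adjusted p = 0.00811), and Itgb3, an integrin beta chain (-1.37, adjusted p = 0.0281). In CD18CD11c cKO BMDCs, the block called 4 as higher and 2 as lower, against 20.2% of all genes. Between the genotypes, 0 of 15 were called without the block in either state. With it, 1 was higher and 7 were lower in unstimulated CD18CD11c cKO BMDCs, where 20.2% of all genes were called. Cd63, a surface receptor of Timp1, was higher (0.84, adjusted p = 0.0183). Itgb3 (-1.65, adjusted p = 0.00318), Lcn2 (-3.08, adjusted p = 0.0199) and Lrp1, which takes up MMPs and TIMPs (-1.15, adjusted p = 0.0333), were lower. After LPS, Furin, a protease that activates Mmp14 (-0.82, adjusted p = 0.0195), and Itgb3 (-1.52, adjusted p = 0.0391) were lower, at a background of 10.1%.

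Of 17 ADAM and ADAMTS proteases, 10 or 11 were tested, and without the block 0 were called in any comparison. The shares of all genes called with the block, given above, are the background of the counts that follow. With the block, 0 of 10 were called for LPS in CD18fl/fl, and Adam10 and Adam15 were lower after LPS in CD18CD11c cKO BMDCs (-1.17 and -1.40, adjusted p = 0.00979 and 0.0207). Adam15, Adam9 and Adam17 were lower in unstimulated CD18CD11c cKO than in CD18fl/fl BMDCs (-0.89, -0.66 and -0.57, adjusted p = 0.0105, 0.0199 and 0.0322), and Adam15 after LPS (-1.06, adjusted p = 0.0414). Of 22 matrix proteins, the substrates of MMPs among them, 8 to 10 were tested. Vcan, a proteoglycan, rose with LPS in CD18CD11c cKO BMDCs without the block (1.98, SE 0.37, adjusted p = 0.0383). The block called 1 of 9 for LPS in CD18fl/fl BMDCs, with Dcn higher (4.70, SE 0.66, adjusted p = 0.0114). In CD18CD11c cKO BMDCs, it called 4 of 10 for LPS, with Lum, Vcan, Dcn and Thbs1 all higher. With the block, Thbs1, thrombospondin, was lower in CD18CD11c cKO than in CD18fl/fl BMDCs in both states (-2.24 and -1.59, adjusted p = 0.00298 and 0.00641). Tgfbi was lower without LPS (-1.06, adjusted p = 0.00418) and Spp1, osteopontin, higher with it (0.64, adjusted p = 0.0464).

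Markers of other cells that express these genes were counted beside them. Of 9 stromal cell markers, between 5 and 7 were above the floor in at least 1 library of a group, and Col3a1 and Pdgfra were at or below 3 reads in all 12 libraries. Of 8 osteoclast markers, Calcr and Oscar were at or below the floor throughout. Beside Mmp13 and Mmp14, the sum of all 8 was between 332 and 348 CPM in unstimulated CD18fl/fl and between 289 and 716 CPM in unstimulated CD18CD11c cKO libraries. After LPS, it was between 381 and 671 and between 525 and 658 CPM, respectively. Dcstamp was higher in CD18CD11c cKO in each same-numbered pair of both states. After LPS, Atp6v0d2, Ctsk and Ocstamp were also higher in each pair, and Acp5 was lower in each. Of 10 neutrophil markers, between 6 and 10 were above the floor in a group, and in the CD18CD11c cKO LPS libraries Elane, Mpo, Cxcr2 and Retnlg were not. The part of these cells in the values was not tested.

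Across the 12 libraries, the genes whose log2 CPM followed that of a member most closely are given by Pearson's r as a description, since libraries share their state and replicate number. Mmp8 was most like C5ar1 (r = 0.972), Fut11 (0.97) and Sesn1 (0.969), and Timp1 was most like Adig (0.976), Tnfsf15 (0.968) and Mlkl (0.967). Mmp12 was followed by Vkorc1l1 (0.959), Fdx2 and Mgst2, and Mmp13 by Nop10 (0.961), Banf1 and Dbi. Mmp14 was closest to Cebpb (0.98), Atxn2 and Tmed8, Mmp19 to Gemin5 (0.959), Lratd2 and Slc25a24, and Mmp9 to Trrap (0.945), Leng8 and D11Wsu47e. For Timp2, these were Tceal8 (0.933), Dguok and Lyzl4, and for Timp3, whose counts were sparse, Shfl (0.870), Cenpv and Pdap1.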

How the data were processed

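MHCII+ BMDCs of 4 groups (3 libraries each) were sequenced as poly(A)-selected, single-end libraries. The authors mapped reads in CLC Genomics Workbench to GRCm39 (their processing notes name GRCm38) and deposited, per library, raw counts as total gene reads and the TPM of 41709 genes, the latter scaled by the authors to exon length and depth. Coordinates are those of the files. Depth limits precision to the floor of 3 reads. It covers counting error only, since PCR copies were not marked by molecular identifiers.

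Total gene reads were tested in edgeR 4.0.16 (R 4.3.3) by the quasi-likelihood test on the 6 libraries of a comparison (12 for the interaction), with TMM scaling, filterByExpr (minimum count 10), Benjamini-Hochberg adjustment over all genes tested and a threshold of 0.05. All 9 genes passed this filter in each comparison. SE was the log2 fold change divided by the square root of F. The replicate block enters the replicate number of the labels as a factor. Deviations of same-numbered libraries from their group means correlated across genes in all 12 pairs (r = 0.265 to 0.716), so the numbers were taken to pair the libraries. Different-numbered libraries of replicates 1 and 2 also correlated (r = 0.154 to 0.334). For LPS in CD18fl/fl, such a pair reached 0.278, above the 0.265 of replicate 2 with replicate 2. Those of replicate 3 with replicates 1 or 2 correlated negatively. The pairing of replicates 1 and 2 is thus less certain than that of replicate 3. DESeq2 1.42.0, RLE and library size scaling, a minimum count of 1, unique or exon reads, a length offset (lowess, span 0.3), all 12 libraries and omitted libraries were alternatives. No 2 libraries were alike within counting error. The fits were tested on simulated counts. Shares and sums used TPM.

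The 9 genes, gene lists and alternatives were chosen with earlier results of these data known. All 9 genes, detected further MMPs, and up to 4 called genes with the smallest p per list and comparison are named, plus the 3 genes most correlated with each of the 9. A gene of the activator list entered the fits and counts, and its values are not reported here.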

Additional observations from a re-analysis of the deposited data

How the results depend on the processing

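The log2 fold changes of the 9 genes in the LPS and genotype comparisons were followed under all alternatives. For the interaction, only those of Mmp8, Mmp12 and Timp1 were counted. Of these values, 571 kept their direction and side of the threshold, 47 newly passed it, 20 no longer did and 40 changed direction. The cause was not tested in any case. Depth limited Timp3, whose lowest LPS-treated libraries held 1 and 2 reads. With the replicate block, the genes called came to 4 for LPS in CD18fl/fl (2 without), 4 for the genotype in unstimulated and 2 in LPS-treated BMDCs (0 without). The block left no call for the interaction, and 3 instead of 2 for LPS in CD18CD11c cKO BMDCs. With the block and a length offset, 4 and 2 genes were called between the genotypes. With the block and library size scaling, 4 were called for LPS in either genotype, and 3 between the genotypes in each state. Library size scaling without the block left 1 for LPS in CD18fl/fl and 1 in CD18CD11c cKO BMDCs. DESeq2 gave 4 for LPS in CD18fl/fl, and 1 between the genotypes in each state. RLE scaling, the lower minimum count, unique reads, all 12 libraries and the exon reads added after the intron reads of Mmp14 were seen changed none of these counts by over 1.5 times.

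Mmp9 changed direction for LPS in CD18fl/fl with the block (-1.56), with the length offset beside it (-1.46) and with library size scaling beside it (-1.94), where the last gave -0.040 in CD18CD11c cKO BMDCs. Between the genotypes after LPS, Mmp9 turned to 0.35, 0.44 and 0.064 in these fits. Mmp19 between the genotypes in unstimulated BMDCs turned to -0.0057 with all 12 libraries, -0.29 with library size scaling, -0.15 with the block, -0.057 with the length offset beside it and -0.54 with library size scaling beside it. Timp2 there turned to -0.10 with library size scaling and -0.17 with the block beside it.

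When libraries were left out, the genes called ranged from 0 to 7 for LPS in CD18fl/fl, 0 to 3 for LPS in CD18CD11c cKO, 0 to 1 for the genotype in unstimulated and 0 to 3 in LPS-treated BMDCs, the highest without replicate 3. For LPS in CD18fl/fl, Mmp9 then ranged from -3.53 to 1.08 and Mmp14 from -0.49 to 1.08. In CD18CD11c cKO BMDCs, the ranges were -0.56 to 0.78 for Mmp9 and -0.016 to 0.96 for Mmp14. Between the genotypes in unstimulated BMDCs, Mmp19 ranged from -0.74 to 0.54 and Timp2 from -0.60 to 0.66. After LPS, the ranges were -0.54 to 0.079 for Mmp8, -2.20 to 2.59 for Mmp9, -1.49 to 0.062 for Mmp14, -0.63 to 0.10 for Mmp19, -0.12 to 1.22 for Timp1 and -0.18 to 2.30 for Timp3. For the interaction, Mmp12 ranged from -0.013 to 1.06 and Timp1 from -1.12 to 0.35.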
